A study of Homo sapiens with 6 samples.

Results

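The genes described here are 10 genes of the long arm of chromosome 13 that are studied in multiple myeloma, a cancer of plasma cells: RB1, DIS3, DLEU1, DLEU2, TRIM13, RNASEH2B, FOXO1, KPNA3, SETDB2 and EBPL. They were picked by symbol, with the difference between the groups already known, from the 60671 genes of a read count table. All 10 were found once and all 10 passed the filter on low counts. Of these, 8 are protein-coding and DLEU1 and DLEU2 are long noncoding RNAs. RNA of the human myeloma line MM.1S was sequenced in 6 libraries. The WT group (3 libraries) came from the parental MM.1S line, and the CD38 KO group (3 libraries) from a clone of that line in which CD38, a surface NAD-hydrolysing glycoprotein, had been disrupted with CRISPR/Cas9. Both carried GFP and a click beetle red luciferase. Live cells were sorted before RNA extraction, as CD38-positive cells in WT and CD38-negative cells in CD38 KO. The knockout is a single expanded clone, so its difference from WT includes whatever else that clone differs in.

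Loss of one copy of 13q is among the commonest chromosome losses in myeloma, and 13q14 is also the region most often lost in chronic lymphocytic leukaemia. RB1 encodes the retinoblastoma protein, which holds E2F transcription factors inactive until cyclin-dependent kinases phosphorylate it in late G1. DIS3 encodes a catalytic subunit of the RNA exosome and is recurrently mutated in myeloma. DLEU2 is the host transcript of the microRNAs miR-15a and miR-16-1, which repress BCL2 and several cyclins.

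Library totals ranged from 61515519 to 72335496 counts. CD38, the check of the labels, averaged 40.6 ± 1.90 in WT against 0.972 ± 0.322 in the knockout (SD, n = 3). These levels are CPM, counts scaled to a common library total with TMM factors. The 7 plasma cell markers SDC1, IRF4, PRDM1, XBP1, TNFRSF17, MZB1 and SLAMF7 summed to 6155 to 6232 CPM in WT and 7120 to 7211 CPM in CD38 KO. They did not go one way: XBP1 was at 1284 to 1339 CPM in WT and 2195 to 2237 in CD38 KO, while MZB1 was at 1176 to 1209 and 979 to 1049.6 and SLAMF7 at 730.1 to 735 and 561 to 574. Markers of T cells summed to at most 6.43 CPM in any library, those of monocytes to 1.30, those of stromal cells to 6.40 and those of erythroid cells to 32.7, of which HBB made up nearly all. CD3E was the T cell marker that differed, at 0.892 to 1.03 CPM in WT and 4.61 to 5.25 in CD38 KO. No marker was at 0 in every library, and the part of other cells in the results was not tested. By the quasi-likelihood test of edgeR, 8934 of the 20120 genes tested (44.4%) changed at an adjusted p below 0.05, of which 4592 rose (22.8%) and 4342 fell (21.6%) in the knockout. Scaled by library size only, 3632 rose and 5570 fell.

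All 10 genes had a higher mean in CD38 KO than in WT. RB1 differed most, EBPL, FOXO1, DLEU1 and SETDB2 came next, and KPNA3, DIS3, DLEU2 and TRIM13 differed least. The log2 fold changes ran from 0.17 to 1.56 with a median of 0.68, against a median of 0.000212 over all tested genes. Of the 10 genes, 8 passed the threshold, all higher, beside 44.4% of all tested genes in either direction and 22.8% higher. Among genes with a mean of at least 5 CPM, 31.8% of all genes were higher. For the other genes of chromosome 13 at that level the share was 73.7%. The 3 CD38 KO libraries all lay above the 3 WT libraries for 9 of the 10 genes, and for 26.9% of all tested genes (52.5% were without overlap in either direction). Since the genes were chosen with this comparison in view, these counts and the values below describe them and are no test. In bulk RNA, fewer cells with a transcript and less of it per cell cannot be told apart.

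**Figure D1:**
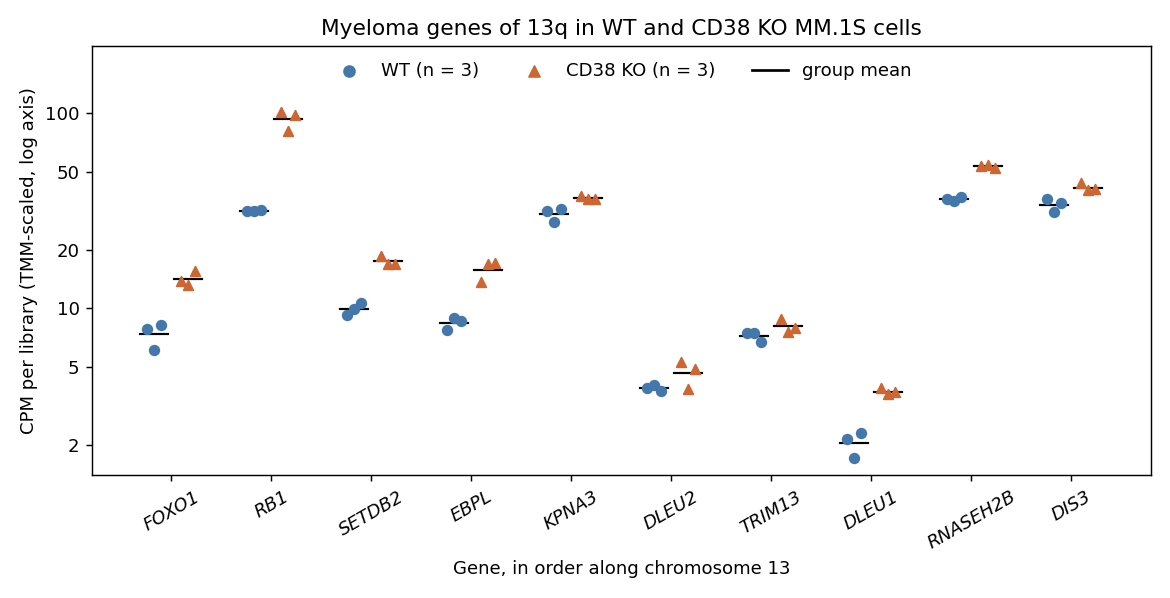
TMM-scaled CPM (log axis) of each of the 10 genes in the 3 WT libraries (circles) and the 3 CD38 KO libraries (triangles), with group means as black lines. The groups are separate for every gene except DLEU2, whose second CD38 KO library (3.85 CPM) lies within the WT range, and the gap is widest for RB1.

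RB1 (ENSG00000139687; chromosome 13, 48303726 to 48599436 in GENCODE 29, build GRCh38, plus strand) was at 31.4, 31.4 and 31.9 CPM in WT and at 101.3, 80.9 and 97.1 CPM in CD38 KO. The WT libraries were nearly identical, with a coefficient of variation of 0.851%, and the lowest CD38 KO library was 2.54 times the highest WT library. The group means were 31.6 ± 0.269 and 93.1 ± 10.8 CPM (SD, n = 3), a log2 fold change of 1.56 ± 0.0696 (SE). Of the other tested genes of chromosome 13, 92.4% had a smaller log2 fold change than RB1. Its neighbour ITM2B, a membrane protein linked to familial dementias, rose by 0.58 ± 0.0450 on the log2 scale (SE; edgeR adjusted p = 7.97e-10). LPAR6, a lysophosphatidic acid receptor gene that lies inside RB1, also rose but from 51 counts over the WT libraries to 160 over the CD38 KO libraries.

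Among the partners of RB1, genes moved in both directions. Of 24 tested RB relatives, E2F and DP factors, G1 cyclins, kinases and kinase inhibitors, 8 rose and 10 fell (median log2 fold change 0.03). CCND1, the cyclin D1 that activates the kinases acting on RB1 protein, fell from 29.5 ± 0.789 to 8.06 ± 0.709 CPM (mean ± SD, n = 3, edgeR adjusted p = 1.34e-13). CDK4 fell, with a log2 fold change of -0.80, while its relative CDK6 rose by 0.92 and the CDK4 and CDK6 inhibitor CDKN2D by 1.35. TFDP1, the E2F partner DP1 and a gene of chromosome 13 itself, had a log2 fold change of 0.03 (edgeR adjusted p = 0.586).

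Genes that E2F factors switch on for S phase were mostly lower. Of 23 tested, 15 fell and 4 rose (median log2 fold change -0.32). MCM6, a subunit of the replicative helicase, went from 239 ± 2.15 to 135 ± 3.51 CPM (mean ± SD, n = 3, edgeR adjusted p = 4.19e-13). RRM2, a subunit of ribonucleotide reductase, went the other way, from 387 ± 11.7 to 644 ± 6.27 CPM. MYBL2, a transcription factor of the S and G2 phases, and CCNA2, the cyclin of S phase and mitosis, rose by 1.42 and 1.51 on the log2 scale.

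DIS3 (ENSG00000083520; 72752169 to 72782096, minus strand), which degrades RNA in the nucleus as part of the exosome, was at 36.1, 31.2 and 34.6 CPM in WT and 43.5, 40.2 and 40.7 CPM in CD38 KO. The groups did not overlap, but the lowest CD38 KO library was only 1.11 times the highest WT library. The log2 fold change was 0.29 ± 0.0653 (SE). The median of the other tested genes of the chromosome, at any level, was 0.39, and 0.49 for those with a mean of at least 5 CPM. The exons of DIS3 share 1180 bases with BORA, the activator of Aurora A kinase on the opposite strand. BORA rose from 4.78 ± 0.602 to 14.1 ± 0.581 CPM (mean ± SD, n = 3, edgeR adjusted p = 1.90e-10), and without a stated strand setting reads of the shared bases cannot be assigned to either. PIBF1, on the other side of DIS3, rose by a log2 fold change of 0.57.

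Other exosome genes did not follow one direction. Of 23 tested subunits and nuclear cofactors, 6 rose and 7 fell (median log2 fold change 0.01). EXOSC8, a core subunit and the list's only gene on chromosome 13, rose from 48.8 ± 1.76 to 73.4 ± 2.39 CPM (mean ± SD, n = 3, edgeR adjusted p = 5.63e-09). The core subunit EXOSC3 and the helicase MTREX, which feeds RNA to the nuclear exosome, fell by 0.43 and 0.25 on the log2 scale. ZCCHC7, an RNA-binding partner of the polyadenylation complex that recruits the exosome, rose by 0.34.

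RNASEH2B (ENSG00000136104; 50909678 to 51024120, plus strand) encodes a subunit of RNase H2, which removes ribonucleotides from DNA. It was at 36.2, 35.4 and 37.2 CPM in WT and at 53.4, 53.9 and 52.4 CPM in CD38 KO. Both groups were tight, with coefficients of variation of 2.47% and 1.42%, and they did not overlap. The log2 fold change was 0.55 ± 0.0542 (SE). Of 6 tested genes for other RNase H subunits or enzymes and for Aicardi-Goutieres syndrome, in which RNASEH2B is mutated, 2 rose and 3 fell. TREX1, also on this list, was not tested. RNASEH2C, a partner subunit in the same enzyme, fell from 89.7 ± 3.62 to 76.9 ± 2.90 CPM (mean ± SD, n = 3, edgeR adjusted p = 0.000781). The row for RNASEH2A, another subunit, was low in both groups, at 0.297 ± 0.120 CPM in WT and 0.275 ± 0.0201 in CD38 KO (SD, n = 3). It did not pass the threshold. RNASEH1 and the dNTP hydrolase SAMHD1 rose by 0.46 and 0.35 on the log2 scale, and the RNA sensor IFIH1 fell by 0.77.

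The lncRNAs DLEU1 and DLEU2 and the ubiquitin ligase gene TRIM13 lie together in 13q14. Of the mature microRNAs from the hairpins inside DLEU2, the 2 with names ending in 5p are shown here because DLEU2 is best known as their host. They share the seed, the bases 2 to 8 that pair with targets (capitals), per RefSeq for build GRCh38.p14:
hsa-miR-15a-5p (chr13:50049167-50049188, minus strand): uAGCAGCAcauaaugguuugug
hsa-miR-16-5p (chr13:50049027-50049048, minus strand): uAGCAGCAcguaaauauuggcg
The libraries do not measure mature microRNAs. The table's row for MIR15A held 0 counts in all 6 libraries, which allows up to 3 counts per library, and that for MIR16-1 held 0 to 4.

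DLEU2 (ENSG00000231607; 49982552 to 50125720, minus strand) was at 3.89, 4.08 and 3.78 CPM in WT and at 5.32, 3.85 and 4.92 CPM in CD38 KO. The second CD38 KO library fell inside the WT range, so the groups overlapped. The log2 fold change was 0.26 ± 0.149 (SE), and DLEU2 did not pass the threshold. TRIM13 (ENSG00000204977; 49995888 to 50020481, plus strand), a ligase of the ER membrane that acts in protein degradation and ER turnover, was at 7.46, 7.49 and 6.73 CPM in WT and 8.82, 7.55 and 7.98 CPM in CD38 KO. Its lowest CD38 KO library was only 1.01 times its highest WT library, and with a log2 fold change of 0.17 ± 0.111 (SE) it did not pass either. TRIM13 and DLEU2 share 346 exonic bases on opposite strands, and TRIM13 shares 1086 with KCNRG on its own strand, so part of their reads cannot be assigned.

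DLEU1 (ENSG00000176124; 50082171 to 50723236, plus strand) was at 2.13, 1.72 and 2.31 CPM in WT and 3.89, 3.65 and 3.71 CPM in CD38 KO. The groups did not overlap and the log2 fold change was 0.87 ± 0.173 (SE), on 114 to 249 counts per library. RefSeq places the DLEU1 start 128 bases from a second DLEU2 start on the opposite strand. The difference between the 2 genes' fold changes was not tested. The DLEU1 window, 250 bases before to 50 after its start, holds both starts and is shown for that reason, with GC boxes (GGGCGG, either strand) in capitals:
DLEU1 (chr13:50081919-50082218, plus strand): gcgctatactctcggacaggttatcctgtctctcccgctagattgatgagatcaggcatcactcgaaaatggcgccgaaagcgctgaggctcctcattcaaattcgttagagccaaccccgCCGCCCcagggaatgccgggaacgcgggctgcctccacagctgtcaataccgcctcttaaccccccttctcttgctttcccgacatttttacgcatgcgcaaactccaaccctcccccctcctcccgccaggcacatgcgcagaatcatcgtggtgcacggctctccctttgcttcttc

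The reported targets of miR-15a and miR-16 were mostly lower in CD38 KO. Of 16 tested, 10 fell and 2 rose (median log2 fold change -0.33). The antiapoptotic BCL2 fell from 91.3 ± 2.06 to 56.2 ± 2.90 CPM (mean ± SD, n = 3, edgeR adjusted p = 2.88e-10), and CCND1, given above, is also on this list. The genes that rose were CDK6 and MCL1. MCL1, another antiapoptotic protein, was at 338 ± 6.86 and 568 ± 16.1 CPM (mean ± SD, n = 3, edgeR adjusted p = 7.44e-13). Of the 8 tested genes for ER-phagy receptors and SQSTM1, a list set beside TRIM13 for its part in ER turnover, 5 fell and 1 rose. SQSTM1, the autophagy receptor p62, went from 1088 ± 29.6 to 490.5 ± 11.9 CPM (SD, n = 3), and ATL3, RETREG1 and CALCOCO1 had log2 fold changes of -0.37, -1.43 and -0.32.

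FOXO1 (ENSG00000150907; 40469953 to 40666597, minus strand), a transcription factor that AKT keeps out of the nucleus and that B cell development requires, was at 7.86, 6.14 and 8.18 CPM in WT and 13.8, 13.1 and 15.5 CPM in CD38 KO. No libraries overlapped, and the lowest CD38 KO library was 1.61 times the highest WT library. The log2 fold change was 0.94 ± 0.112 (SE). Of 25 tested FOXO relatives, FOXO targets and AKT pathway genes, 7 rose and 12 fell (median -0.19). The FOXO target TXNIP, an inhibitor of thioredoxin and glucose uptake, fell by 1.43 on the log2 scale. The kinase SGK1, a relative of AKT, rose from 63.4 ± 0.484 to 101 ± 3.03 CPM (SD, n = 3). IRS2, an insulin receptor adaptor and the list's gene on chromosome 13, was lower, at -0.31 ± 0.0769 (SE; edgeR adjusted p = 0.00212).

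KPNA3 (ENSG00000102753; 49699307 to 49792921, minus strand), an importin alpha that carries proteins with a nuclear localization signal, was at 31.4, 27.8 and 32.4 CPM in WT and 37.5, 36.4 and 36.5 CPM in CD38 KO. The CD38 KO libraries lay just above WT, by 1.12 times from lowest to highest, and the log2 fold change was 0.27 ± 0.0667 (SE). Of 12 tested import genes, 5 rose and 2 fell, but 2 rose and 5 fell when libraries were scaled by size only. Without WT replicate 3 or CD38 KO replicate 3, 1 fell. KPNA2, the importin alpha of dividing cells, rose from 212 ± 5.17 to 462 ± 13.996 CPM (mean ± SD, n = 3, edgeR adjusted p = 2.31e-15). KPNA6 rose by 0.26 and KPNB1, the importin beta that binds them, fell by 0.30 on the log2 scale. KPNA1 rose by 0.19, a call lost when scaled by library size only (edgeR adjusted p = 0.0634, the highest of the alternatives, whose lowest was 0.000586).

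The RefSeq start windows of KPNA3 and FOXO1 are set side by side, as the genes with a small and a large difference, with GC boxes in capitals:
KPNA3 (chr13:49792633-49792932, minus strand): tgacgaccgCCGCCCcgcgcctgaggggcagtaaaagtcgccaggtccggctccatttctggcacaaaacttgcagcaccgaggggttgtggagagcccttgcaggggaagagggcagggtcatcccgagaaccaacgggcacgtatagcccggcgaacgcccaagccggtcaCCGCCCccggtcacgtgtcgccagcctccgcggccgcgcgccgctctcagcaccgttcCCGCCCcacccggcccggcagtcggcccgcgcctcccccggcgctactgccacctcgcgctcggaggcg
FOXO1 (chr13:40666592-40666891, minus strand): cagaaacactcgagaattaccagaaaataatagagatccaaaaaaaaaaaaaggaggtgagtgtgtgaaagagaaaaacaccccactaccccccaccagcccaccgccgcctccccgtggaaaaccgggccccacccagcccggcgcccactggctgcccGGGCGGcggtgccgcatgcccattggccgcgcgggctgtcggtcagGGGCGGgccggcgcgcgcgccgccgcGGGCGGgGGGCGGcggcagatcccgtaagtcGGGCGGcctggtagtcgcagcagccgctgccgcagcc
Both windows were GC-rich, with 72% G and C for KPNA3 and 68% for FOXO1 against a median of 58.7% over all 35116 windows. The KPNA3 window held 3 GC boxes and the FOXO1 window 5. In the other genes, the windows nearest the GENCODE start held 3 for EBPL and DLEU2 and 2 for DIS3. Those of SETDB2 and DLEU1 held 1 each and that of RNASEH2B 0. The relation of these numbers to the fold changes was not tested. With 1 window counted per gene, the one nearest its GENCODE start, 7 of 8 genes held GGGCGG on either strand (45% of all windows) and 5 held CCAAT (34.6%). The exception was RNASEH2B, whose second window, with a start 113 bases away, held 1 GC box. None held TTTNGCGC, an E2F motif found in 1.79% of all windows, or GTAAACA, a FOXO motif found in 3.42%. The shares of all windows include every listed start, also several per gene. They are therefore not like for like with 1 window per gene near its GENCODE start. The window listed for RB1 belongs to a start 172724 bases inside the gene and was not used, and TRIM13 had no entry.

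SETDB2 (ENSG00000136169; 49444374 to 49495003, plus strand), a putative histone H3 lysine 9 methyltransferase, was at 9.27, 9.87 and 10.7 CPM in WT and 18.6, 16.9 and 16.9 CPM in CD38 KO. The groups were well apart, with the lowest CD38 KO library at 1.57 times the highest WT library and a log2 fold change of 0.81 ± 0.0904 (SE). Its neighbours were CAB39L, with 0.32 ± 0.145 on the log2 scale (SE; edgeR adjusted p = 0.0771) and PHF11, at 0.20 ± 0.0797 (SE; edgeR adjusted p = 0.0433). The call of PHF11 was lost in 8 of 16 alternatives (adjusted p from 0.0283 to 0.249), among them each run without WT replicate 1 or 3 or CD38 KO replicate 2 or 3, and that of CAB39L was gained without WT replicate 3 or without CD38 KO replicate 1. Of 11 tested methyltransferases of the same mark, readers and partners, 3 rose and 2 fell, and 1 rose when libraries were scaled by size only. The heterochromatin protein MPHOSPH8, on chromosome 13, rose from 34.0 ± 1.48 to 52.2 ± 2.47 CPM (mean ± SD, n = 3, edgeR adjusted p = 2.34e-08), while the SETDB1 partner ATF7IP fell by 0.50 and the H3K9 reader CBX5 by 0.31 on the log2 scale.

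EBPL (ENSG00000123179; 49660723 to 49691475, minus strand), a relative of the sterol isomerase EBP, was at 7.75, 8.92 and 8.66 CPM in WT and 13.6, 16.8 and 16.97 CPM in CD38 KO. The first CD38 KO library was the lowest of its group and still 1.52 times the highest WT library. The log2 fold change was 0.90 ± 0.104 (SE), while KPNA3, the next gene, was at 0.27. Of 11 tested genes of late cholesterol synthesis, EBP among them, 6 rose and 0 fell by edgeR, but 3 fell when libraries were scaled by size only. LSS, which forms lanosterol, and DHCR7, which catalyses the last step to cholesterol, rose from 264 ± 10.3 to 386 ± 2.69 CPM and from 267 ± 8.96 to 389 ± 11.7 CPM (SD, n = 3), and MSMO1 by 0.25 on the log2 scale. ARL11, on the other side of EBPL, was near 0, with 116 counts over the WT and 5 over the CD38 KO libraries.

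Per kilobase of the longest GENCODE 29 transcript, the order of the levels in WT was EBPL (8.23 CPM per kb), KPNA3 (6.83), RB1 (6.59), RNASEH2B (4.98), DIS3 (3.20), SETDB2 (1.62), FOXO1 (1.29), DLEU2 (1.28), TRIM13 (0.997) and DLEU1 (0.696). The libraries of KPNA3 and RB1 overlapped, as did those of FOXO1 and DLEU2, so the order within these pairs was not resolved. In CD38 KO, RB1 came first at 19.4 ± 2.25 CPM per kb, ahead of EBPL at 15.4 ± 1.86 (SD, n = 3), and their libraries did not overlap. DLEU1 passed TRIM13, at 1.27 ± 0.0435 and 1.12 ± 0.0896 CPM per kb (SD, n = 3), and overlapped with DLEU2 at 1.53 ± 0.248. These levels depend on which transcript of each gene the cells make.

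The other genes of chromosome 13 rose more often than they fell in CD38 KO. The chromosome is acrocentric, so its annotated genes lie on 13q. Of 382 tested genes besides the 10, 171 rose (44.8%) and 20 fell (5.24%), beside 22.8% and 21.6% of all tested genes. Their median log2 fold change was 0.39. The medians of the other 22 chromosomes (autosomes and X) lay between -0.11 and 0.12, their shares of higher genes between 17.6% and 29.1% and their shares of lower genes between 14.2% and 31.3%. These counts and medians were not tested, and chromosome 13 was already known to stand out in these data.

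**Figure D2:**
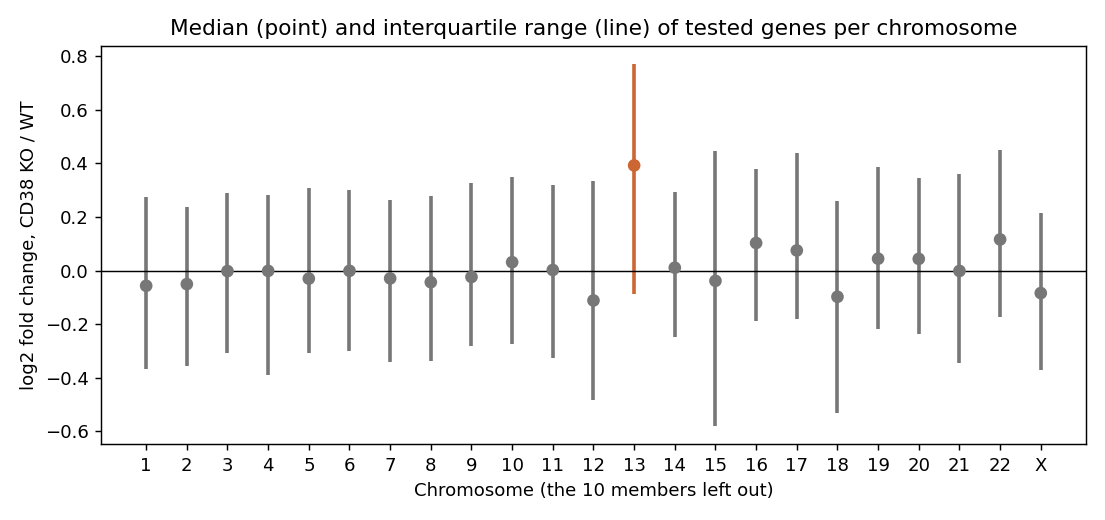
Median (point) and interquartile range (line) of the log2 fold change, CD38 KO over WT, of the tested genes of each chromosome, with the 10 genes left out. Chromosome 13 lies at 0.39, outside the range of -0.11 to 0.12 spanned by the others.

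Each CD38 KO library showed the difference. Over the 175 other genes of chromosome 13 with a mean of at least 5 CPM, the median log2 difference from the WT mean was 0.51, 0.48 and 0.49 for CD38 KO and -0.01, 0.01 and 0.01 for WT. Over all 10316 genes at that level it was between -0.01 and 0.01 in every library. Chromosome 13 outside the 10 genes took 1.04%, 1.05% and 1.05% of all counts in WT and 1.37%, 1.35% and 1.36% in CD38 KO. The means were 1.05% ± 0.00497 and 1.36% ± 0.0112 (SD, n = 3), a ratio of 1.30 (two-sided exact permutation test, p = 0.1, which is the lower limit for 3 libraries against 3). As the test could not go lower and the chromosome was already known to stand out, this p-value decides nothing. Mitochondrially encoded genes took 2.63% to 2.71% of counts in WT and 6.83% to 7.30% in CD38 KO. Without them the difference in the chromosome 13 share was 0.389 percentage points in place of 0.314, and the part of other composition differences was not tested.

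Against the chromosome-wide median, 6 of the 10 genes lay above 0.39 (RB1, FOXO1, EBPL, DLEU1, SETDB2 and RNASEH2B) and 4 below (DIS3, KPNA3, DLEU2 and TRIM13). That median and the shares that follow take in tested genes of every level and type, many with few counts. The median was 0.49 for those with a mean of at least 5 CPM and 0.45 for protein-coding ones. The same 6 genes lay above both. FOXO1, EBPL and DLEU1 exceeded 83.5%, 81.7% and 80.1% of the other genes of the chromosome in log2 fold change, and TRIM13 38.7%. In the stretches bounded by some of the 10 genes, 65 of 132 genes rose before FOXO1 (median 0.49), 31 of 57 from FOXO1 to RB1 (0.52), 9 of 24 from RB1 to RNASEH2B (0.28), 19 of 39 from RNASEH2B to DIS3 (0.66) and 47 of 130 after DIS3 (0.17). The count from RB1 to RNASEH2B was 5 with a filter at 1 CPM. Genes that fell numbered 4, 2, 2, 2 and 10 in the same order. The difference between stretches was not tested.

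**Figure D3:**
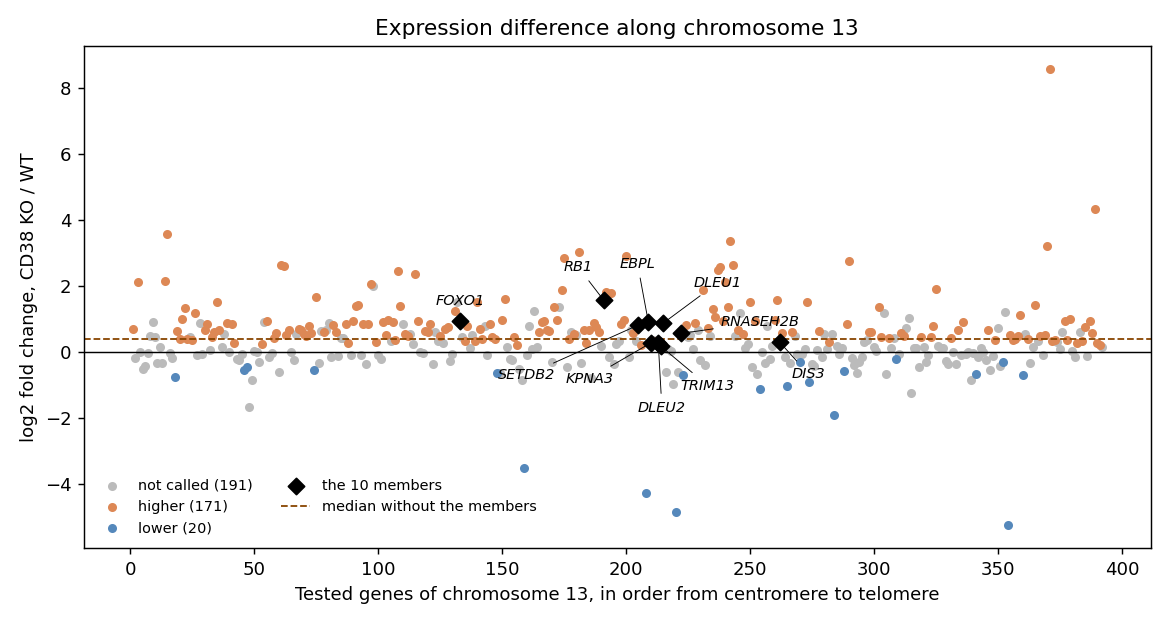
Log2 fold change, CD38 KO over WT, of the tested genes of chromosome 13 in order from centromere to telomere, coloured by edgeR call, with the 10 genes as black diamonds. Most points lie above 0 (171 higher, 20 lower), the dashed line is the median of 0.39, and among the 10 genes RB1 lies highest.

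Within the 13q14 deletion region, 28 genes besides the 10 were tested, of which 20 rose (71.4%) and 3 fell (median 0.66). Over chromosome 13 without the 10 genes, 44.8% rose, and 73.7% of those with a mean of at least 5 CPM. With a filter at 1 CPM, 1 fell. CKAP2, a spindle-associated protein, rose from 67.1 ± 1.98 to 173 ± 15.5 CPM and the kinase NEK3 from 8.68 ± 0.313 to 21.1 ± 0.461 CPM (SD, n = 3). VPS36, a subunit of the endosomal sorting complex ESCRT-II, and INTS6, a subunit of the Integrator complex, rose by 0.92 and 0.80 on the log2 scale. The genes that fell were FAM124A, DLEU7 and ARL11. FAM124A went from 8.13 ± 0.250 to 5.02 ± 0.246 CPM (mean ± SD, n = 3, edgeR adjusted p = 3.90e-05), and DLEU7 had 43 counts over the WT and 1 over the CD38 KO libraries. Of the 12 distinct nearest protein-coding neighbours of the 10 genes, 8 rose and 3 fell. COG6, a Golgi tethering subunit next to FOXO1, rose from 17.1 ± 1.85 to 39.9 ± 2.96 CPM (SD, n = 3), and MRPS31 and SPRYD7, next to FOXO1 and KPNA3, by 0.32 and 0.31 on the log2 scale.

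Among all protein-coding genes of chromosome 13 with a mean of at least 5 CPM, RB1 was among the 5 with the highest log2 fold changes. The others were ATP8A2, a phospholipid flippase (log2 fold change 2.62), ALOX5AP, which hands arachidonic acid to 5-lipoxygenase for leukotriene synthesis (2.07), BORA (1.56) and the kinetochore protein SKA3 (1.52). ALOX5AP went from 67.0 ± 1.87 to 281 ± 13.7 CPM (SD, n = 3). FAM124A, the O-glucosyltransferase POGLUT2 (-0.67), IRS2 and COMMD6 (-0.30) belonged to the 5 with the lowest log2 fold changes. Leaving out WT replicate 3 ended the call of COMMD6 (edgeR adjusted p = 0.0637, the highest of the alternatives, whose lowest was 2.46e-05).

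For comparison, 15 genes of other chromosomes that myeloma gains, losses or mutations affect were also tested, of which 5 rose and 6 fell (median 0.03). TENT5C, a poly(A) polymerase gene of 1p, rose from 481 ± 11.1 to 1206 ± 25.5 CPM and CKS1B, a cyclin-dependent kinase subunit of 1q, from 67.8 ± 6.57 to 115 ± 5.70 CPM (SD, n = 3). CYLD, a deubiquitinase of 16q that restrains NF-kB, fell from 192 ± 6.46 to 139 ± 5.37 CPM (SD, n = 3).

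**Figure D4:**
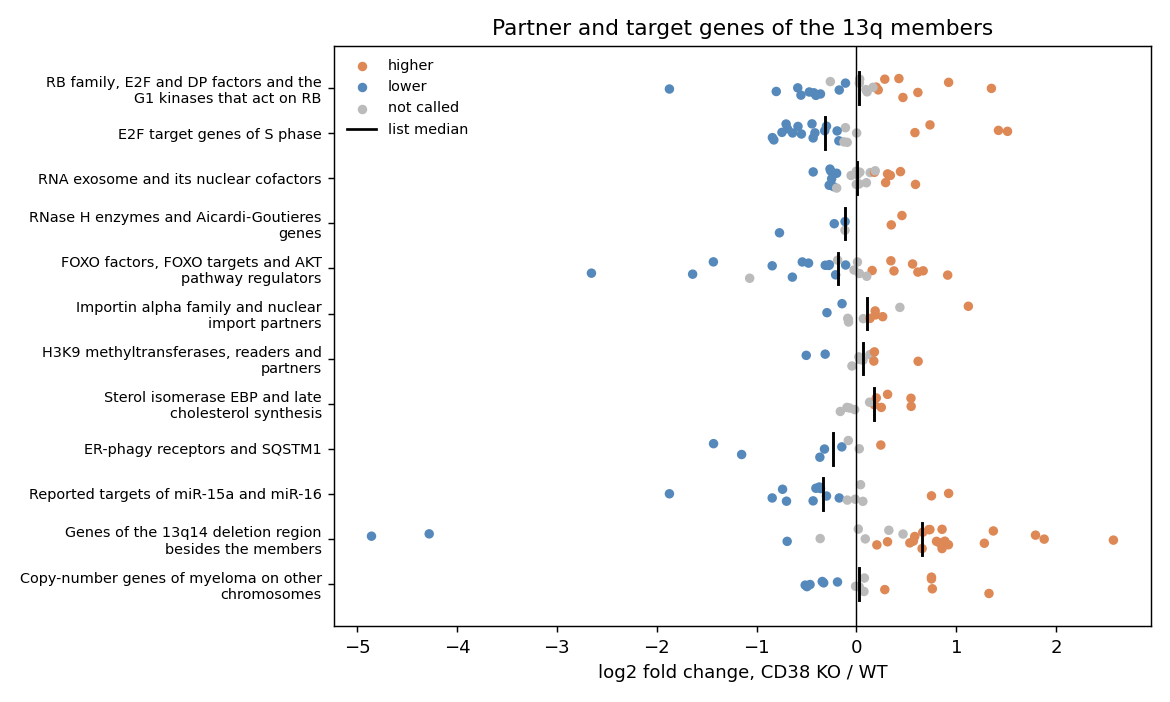
Points show the log2 fold change, CD38 KO over WT, of each tested gene in the 12 gene lists, coloured by edgeR call. Black lines are the list medians. The genes of the 13q14 deletion region have the highest list median (0.66), and those of the S-phase E2F targets and the miR-15a and miR-16 targets lie at -0.32 and -0.33.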

How the data were processed

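RNA of MM.1S cells was measured in 6 libraries, 3 WT and 3 CD38 KO, as raw read counts per gene deposited by the authors in 1 table. STAR 2.7.9a, Partek and DESeq2 appear in the submitters' processing notes, with no role. The build, annotation, counter and strandedness were not given in the sources used here, and overlapping genes are therefore uncertain. Of 60871 lines, 200 repeated an identifier with the same counts and were dropped. Groups came from the genotype label. Chromosomes, positions and transcript lengths came from GENCODE 29 (GRCh38) by Ensembl identifier, which matched 58453 genes, and sequences from RefSeq (GRCh38.p14).

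CD38 KO and WT were compared in edgeR 4.0.16 (R 4.3.3) with its quasi-likelihood test (filterByExpr, TMM factors, robust dispersion, no covariate), with Benjamini-Hochberg adjustment over all 20120 tested genes and a threshold of 0.05. The procedure was tested on simulated counts. At 3 counts a library's floor was 0.0405 to 0.0504 CPM, covering counting error only. The labels call the samples biological replicates of each sorted line, so p-values measure the spread within 1 clone and 1 WT population. The 10 genes, the lists, tests and alternatives were chosen with earlier results of these data known.

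Named genes were CD38, the members, their nearest tested protein-coding neighbours, the 5 highest and 5 lowest called protein-coding genes of chromosome 13 at 5 CPM or more, up to 4 genes of each of 12 lists by adjusted p, and the 3 genes most like the members. TFDP1 was named after its values were seen. Some genes that this rule names are not reported here. The alternatives covered normalization (RLE, upper quartile, library size only), 2 other filters, DESeq2 1.42.0, limma-voom (limma 3.58.1), the replicate number as a block, leaving out each library, and no mitochondrial genes. Scaling on genes outside chromosome 13 was added after seeing the data.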

Additional observations from a re-analysis of the deposited data

How the results depend on the processing

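The count of changed genes (8934) and of changed genes of chromosome 13 besides the 10 (191, with 171 higher and 20 lower) stayed within 1.5 times under all alternatives run, with 151 to 172 higher and 18 to 30 lower. The median log2 fold change of chromosome 13 was 0.39. It was 0.38 with upper-quartile factors, 0.31 with library size alone, where the median of all genes was -0.08, and 0.32 with no filter on low counts, and it ranged from 0.36 to 0.39 when 1 library was left out. With factors from genes outside chromosome 13, chosen after seeing the data, it was 0.40. The count of higher genes from RB1 to RNASEH2B was 5 with a filter at 1 CPM, which tests fewer genes, in place of 9. The log2 fold change of RB1 ranged from 1.48 to 1.65 over 16 alternatives and that of FOXO1 from 0.82 to 1.01. All 10 genes kept a higher mean in CD38 KO in all 16. DLEU2 passed the threshold in 1 of the 16 and TRIM13 in 0. The call of CBX3 was lost with library size alone (edgeR adjusted p = 0.119, the highest of the alternatives, whose lowest was 0.00126). With the replicate block, 8918 genes were changed and the chromosome 13 median was 0.39. Same-numbered libraries had correlations of deviations of 0.106, 0.0438 and -0.0302. The highest correlation, between WT replicate 2 and CD38 KO replicate 3, was 0.1345. Values this weak cannot decide whether the numbers pair the samples. DLEU1 and DLEU2 had the fewest counts of the 10 genes, 114 to 340 per library, and the part of depth in their spread was not tested.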

Other observations

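The genes whose log2 CPM over the 6 libraries lay closest to the mean profile of the 10 genes were LIMS1, an adaptor of integrin adhesions, FAM8A1, a partner of the ER degradation ligase HRD1, and the chemokine CCL2. Their Euclidean distances were 0.0546, 0.0627 and 0.0680 among 10308 genes with a mean of at least 5 CPM, and they lie on chromosomes 2, 6 and 17. LIMS1 rose from 80.8 ± 2.34 to 130.9 ± 5.68 CPM and CCL2 from 4.26 ± 0.149 to 6.90 ± 0.417 CPM (SD, n = 3). Of the 100 closest genes, 6 lie on chromosome 13, which holds 1.70% of the 10308. The profile mostly reflects the group difference, which many genes share.

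The long part of chromosome 13 after DIS3 was not uniform in a split into 3 runs of equal gene number, made after the values were seen. From PIBF1 to UGGT2, 12 of 44 genes rose and 5 fell (median log2 fold change 0.08), and from MBNL2 to ABHD13 11 of 43 rose and 2 fell (0.10). From TNFSF13B to CHAMP1, near the telomere, 24 of 43 rose and 3 fell (0.37). Over the whole chromosome without the 10 genes, 138 of 222 protein-coding genes rose and 13 fell (median log2 fold change 0.45). Of 62 lncRNAs, 21 rose, 1 fell and 40 were not called, with a median of 0.64. Several of these lncRNAs lay below 1 CPM in every library. Their median was not compared with that of lncRNAs on other chromosomes. Neither difference was tested.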
